A study of Mus musculus with 2 samples.

Results

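The cells described here are yolk sac cells that carried RNA of Mpo and Prtn3, the genes of the neutrophil granule proteins myeloperoxidase and proteinase 3. They were chosen by counts of unique molecular identifiers (UMIs), each of which stands for 1 captured RNA molecule. A cell was kept if it had 500 genes or more and no more than 10% mitochondrial UMIs, and it entered with at least 5 UMIs of Mpo and Prtn3 together. The embryonic globins Hbb-y, Hbb-bh1 and Hba-x had to make under 5% of its UMIs, and the collagen genes Col1a1, Col1a2 and Col3a1 under 10 of every 10000. It also had to have under 3 UMIs of the macrophage complement genes C1qa, C1qb and C1qc and under 3 UMIs of Ecscr, a gene of endothelial cells. By this rule 166 of 1634 kept cells were myeloid-primed progenitors. These counts chose the cells, so the levels of Mpo, Prtn3 and the other genes of the rule are given as a description.

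The wild-type (WT) library and the Baf155 CKO library both came from yolk sacs of B6 mice, and each pools embryos of E9.5 with as many of E10.5, so cells cannot be assigned to a stage. The cells of both groups were frozen in serum with DMSO, thawed, and sorted as live Ter119-negative cells, a gate that takes out red cells, before 10x Genomics 5′ single-cell RNA sequencing. The labels name nuclei as the material while the protocol describes whole cells. CKO is the label of the genotype, and the sample title has KO. The sources used here do not name the Cre driver, the deleted exon or how many embryos were pooled. There was 1 library per genotype, so no test between genotypes was possible. What sets the genotypes apart cannot be told apart from what sets the embryos, the sorts or the library preparations apart. Every interval printed is at 95% and reflects counting error alone.

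Erythromyeloid progenitors of the yolk sac arise from haemogenic endothelium and supply the embryo with red cells, megakaryocytes, macrophages and granulocytes before stem cells take over. Primary granule genes such as Mpo, Prtn3, Elane and Ctsg come on early in the granulocyte and monocyte branch, and the genes of secondary granules come on only later. PU.1, the product of Spi1, is an ETS family transcription factor of that branch and works with C/EBP factors, Runx1 and Myb. Smarcc1 encodes Baf155, a scaffold subunit of the BAF complexes, which move nucleosomes at promoters and enhancers.

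The WT library held 815 barcodes and the CKO library 865, of which 787 and 847 were kept, and 1 barcode occurred in both libraries but in none of the myeloid-primed progenitors. Median depth was 42674 UMIs in WT and 43383 in CKO progenitors, against 28167 and 28320 over all kept cells. All 6 genes expected of such cells (Mpo, Prtn3, Spi1, Coro1a, Rac2 and Cd34) were seen in at least 25% of the progenitors of both libraries, and their summed level was 2700 counts per 1000000 UMIs (CPM) in WT and 2431 CPM in CKO progenitors, against 455 and 438 CPM in the other kept cells. Mpo and Prtn3 chose the cells. The 4 genes that the rule did not use (Spi1, Coro1a, Rac2 and Cd34) summed to 1716 CPM (WT) and 1671 CPM (CKO), against 417 and 347 CPM in the other kept cells. Those include globin-rich and collagen-rich cells, and the 4 genes are not particular to the progenitors. C1q-positive cells (at least 3 C1q UMIs) had more Coro1a, at 1038 CPM (WT) and 937 CPM (CKO) against 652 and 647 CPM in progenitors. Their Rac2 was at 442 and 500 CPM against 531 and 428 CPM, and their Cd34 at 118 and 185 CPM against 213 and 226 CPM. Of 6 markers of mature neutrophils, S100a8, S100a9, Ngp, Camp and Ly6g had no UMI in either library. Of 14 genes of secondary and tertiary granules, 12 had none. Of 8 macrophage markers, 7 had UMIs in WT and 6 in CKO progenitors, with Timd4 at 0 in both and C1qa at 0 in CKO. They summed to 36.5 CPM in WT progenitors against 308 CPM in the other kept WT cells, and to 55.2 CPM in CKO progenitors against 53.1 CPM, and the rule itself held the C1q genes low. The 6 lymphoid markers summed to 6.61 CPM (WT) and 6.58 CPM (CKO). The 25% mark was also reached by 4 of 6 erythroid and 3 of 6 megakaryocyte markers in both libraries. So did 3 (WT) and 4 (CKO) of 6 endothelial markers, and 3 of 6 stromal markers in CKO. Megakaryocyte markers summed to 98.6 CPM in WT progenitors against 79.9 CPM in the other kept cells, and to 158 against 736 CPM in CKO. Erythroid markers summed to 393 CPM (WT) and 2340 CPM (CKO), against 76636 and 92643 CPM. They include Hbb-y, Hbb-bh1 and Hba-x, which the rule itself held low.

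The sequences just upstream of the 3 serine protease and peroxidase genes at the head of the granule list are shown because these genes define the cells and Elane is a close neighbour of Prtn3. Prtn3 and Elane lie on chromosome 10 on the plus strand, with 3072 bases between the end of Prtn3 and the start of Elane in GENCODE, and Mpo lies on chromosome 11 on the plus strand. Each sequence ends at the base before the first exon met downstream in GENCODE (GRCm38) and comes from the RefSeq promoter windows of build GRCm38.p6. The windows are chr10:79879434-79879613 for Prtn3, chr10:79886067-79886246 for Elane and chr11:87793534-87793580 for Mpo, and a longer GENCODE transcript of Prtn3 starts upstream of its window. Capitals mark matches to GAGGAA, a core bound by ETS factors such as PU.1, and to AACNGT, a core bound by Myb, on either strand.
Prtn3: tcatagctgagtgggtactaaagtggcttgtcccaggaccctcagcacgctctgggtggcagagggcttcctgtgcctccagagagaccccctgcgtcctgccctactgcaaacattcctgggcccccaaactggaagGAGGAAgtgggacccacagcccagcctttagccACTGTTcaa
Elane: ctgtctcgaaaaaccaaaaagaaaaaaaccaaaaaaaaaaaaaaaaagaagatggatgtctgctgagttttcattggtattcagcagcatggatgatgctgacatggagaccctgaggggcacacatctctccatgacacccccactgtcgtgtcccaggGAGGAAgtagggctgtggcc
Mpo: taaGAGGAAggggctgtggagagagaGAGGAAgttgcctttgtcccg
GAGGAA began 42 bases before the exon in Prtn3, 20 in Elane, and 44 and 21 in Mpo. Among 32851 RefSeq promoters, 17.1% of windows placed like that of Prtn3 hold GAGGAA and 17.2% placed like that of Elane. For the 47-base window of Mpo the share was 4.51%. That window is the upstream end of the RefSeq promoter window, since a GENCODE exon of Mpo begins before the RefSeq start. Windows placed like it therefore do not adjoin a RefSeq start. AACNGT matched once, in Prtn3, and 16.4% of windows placed like it hold that core. Neither TTGCNNAA (C/EBP) nor TGTGGT (RUNX) matched in these 3 windows, which says only that those letters are not there.

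Myeloid-primed progenitors made 123 of the 787 kept WT cells, or 15.6% (13.2 to 18.4), and 43 of the 847 kept CKO cells, or 5.08% (3.70 to 6.78). The number of cells with Mpo and Prtn3 RNA differed less. At least 5 UMIs of both genes together were found in 154 WT cells (19.6%) and 130 CKO cells (15.3%). The Ecscr limit alone took out 14 of them in WT and 74 in CKO, which is 9.09% (5.06 to 14.8) against 56.9% (48.0 to 65.6). The C1q limit alone took out 16 in WT and 11 in CKO, and the globin and collagen limits alone took out none. Without the Ecscr limit the counts would be 137 WT cells (17.4%, 14.8 to 20.2) and 117 CKO cells (13.8%, 11.6 to 16.3). Among kept cells outside the globin-rich and collagen-rich sets, 31.4% of WT and 14.2% of CKO cells were progenitors by the full rule.

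**Figure D1:**
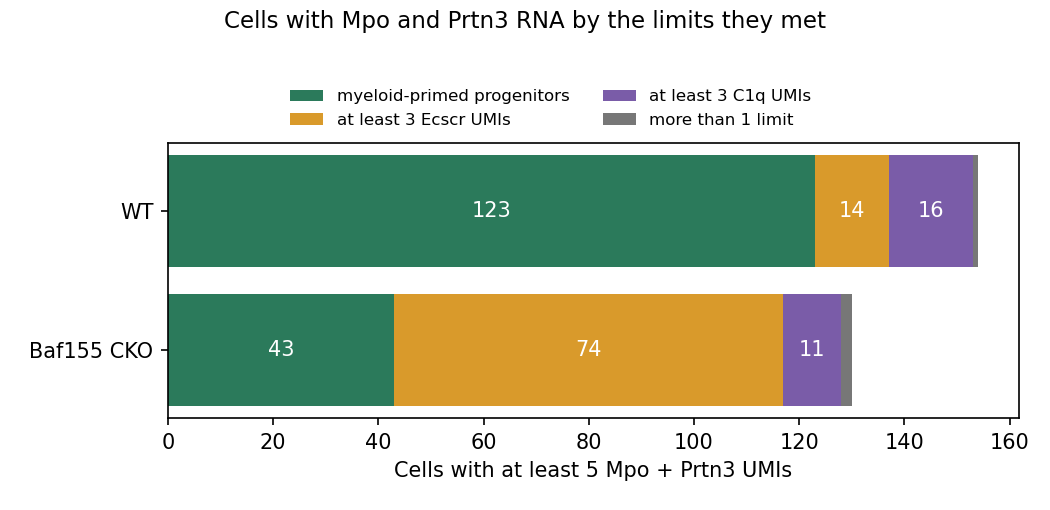
Kept cells with at least 5 UMIs of Mpo and Prtn3 together, per library, split by the limit that took them out. Each bar segment is a count of cells. The 74 CKO cells that had at least 3 Ecscr UMIs outnumber the 43 CKO cells that met every limit, whereas in WT the counts were 14 and 123.

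The Ecscr-positive cells carried Mpo without much Prtn3 in the CKO library. Mpo stood at 412 CPM in the 74 CKO cells, with a Prtn3 to Mpo ratio of 0.401, and Mpo UMIs outnumbered Prtn3 UMIs in 65 of them. In the 14 WT cells Mpo was at 139 CPM and the ratio was 1.70, with Mpo ahead in 5. The CKO cells had 13.3 CPM of Smarcc1 against 117 CPM in the WT cells, 520 CPM of the progenitor and endothelial surface gene Cd34 against 358 CPM, and 110 CPM of the haemogenic endothelium gene Sox17 against 5.78 CPM. Spi1 stood at 190 CPM in the CKO and 322 CPM in the WT cells, and Rac2, a small GTPase of blood cells, at 113 and 322 CPM. Ecscr itself was at 433 CPM in the CKO and 80.9 CPM in the WT cells, at median depths of 32034 and 53010.5 UMIs. The WT cells thus lay closer to the Ecscr limit, and the part of this in the differences above was not tested. The rule removed these cells, so what follows describes the cells that remained.

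Near the threshold of the rule, 26 WT and 8 CKO progenitors had 5 to 9 Mpo and Prtn3 UMIs, and 61 WT and 22 CKO cells that met all other limits had 1 to 4. The just-inside cells had a median of 6.5 UMIs in WT and 7 in CKO, and the just-outside cells had 2 in both. Free RNA is a source of single UMIs in droplets. In collagen-rich cells, which should not express these genes, Mpo had a UMI in 3 of 240 WT and 9 of 281 CKO cells, and Prtn3 in 12 and 12, at median depths of 22611.5 and 21994 UMIs. At least 5 UMIs of both genes together chose the progenitors, so shares there are high by that choice and are a description. In the progenitors the shares were 95.1% and 95.3% for Mpo and 97.6% and 88.4% for Prtn3. With every cell thinned to 10000 UMIs they were 71.8% in WT and 83.3% in CKO for Mpo and 88.9% and 81.0% for Prtn3, with 6 WT cells and 1 CKO cell too shallow to be used.

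Smarcc1, the targeted gene, had between 0 and 25 UMIs per WT progenitor with a median of 5, and between 0 and 10 per CKO progenitor with a median of 1. The ranges overlap. Its level was 126 CPM (116 to 136) in WT and 55.7 CPM (45.8 to 67.1) in CKO, a CKO over WT ratio of 0.443 (0.358 to 0.543). No UMI was seen in 3 of 123 WT cells and in 13 of 43 CKO cells. In the other kept cells the ratio was 0.248. Reads from a deleted allele could still count here, since the deleted stretch is not named.

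The CKO progenitors were not uniform in Smarcc1. Cells were grouped into 2 sets by an Xist UMI, which marks female cells, or a UMI of a Y-linked gene and none of Xist, which marks male cells. The 15 CKO cells with Xist had 0 to 4 Smarcc1 UMIs and 15.5 CPM (7.72 to 27.7), while the 25 Y-linked CKO cells had 0 to 10 UMIs and 78.8 CPM (63.5 to 96.7). Neither kind of UMI was seen in 9 WT and 3 CKO cells. In WT the same sets had 130 CPM (117 to 144; 65 cells) and 126 CPM (111 to 142; 49 cells). CKO over WT was thus 0.119 among cells with Xist and 0.627 among Y-linked cells. Cells of both sexes came from an unstated number of embryos, so an effect of sex and one of single embryos cannot be told apart, and values for both sets stand beside several results below.

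**Figure D2:**
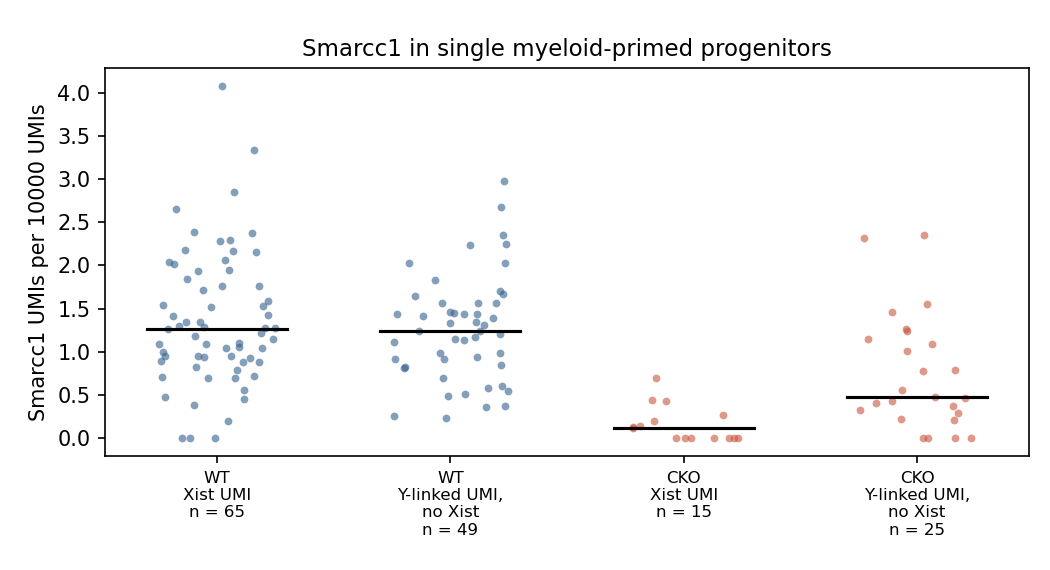
Smarcc1 UMIs per 10000 UMIs in single myeloid-primed progenitors, by library and by Xist or Y-linked UMIs. Each point is a cell and each line the median of its set. The 15 CKO cells with Xist lie at the bottom of the WT range, and the 25 Y-linked CKO cells spread over much of it.

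Mpo and Prtn3 were read first among the granule genes. Mpo ranged from 0 to 115 UMIs per WT cell with a median of 7, and from 0 to 47 per CKO cell with a median of 9. Prtn3 ranged from 0 to 146 with a median of 14 in WT, and from 0 to 95 with a median of 8 in CKO. Summed over cells, Mpo was at 323 CPM (WT) and 297 CPM (CKO), a ratio of 0.920 (0.836 to 1.01), and Prtn3 at 661 and 463 CPM, a ratio of 0.701 (0.651 to 0.754). Most cells held both: 114 of 123 in WT and 36 of 43 in CKO had a UMI of each. In CKO, 5 cells had Mpo alone and 2 had Prtn3 alone, against 3 and 6 in WT.

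The balance of the genes differed within the CKO library along Smarcc1. WT progenitors had 2.04 Prtn3 UMIs for each Mpo UMI, with Prtn3 ahead in 84 of 123 cells (68.3%, 59.3 to 76.4). CKO progenitors had 1.56, with Prtn3 ahead in 24 of 43 (55.8%, 39.9 to 70.9). The 13 CKO cells with no Smarcc1 UMI had 0.293, with Prtn3 ahead in 2 of them. The 30 CKO cells with a Smarcc1 UMI had 2.37, with Prtn3 ahead in 22. By sex genes the CKO values were 0.713 in cells with Xist and 2.01 in Y-linked cells, against 2.16 and 2.21 in WT. Prtn3 itself was 655 CPM (WT) and 179 CPM (CKO) among cells with Xist, a ratio of 0.273, and 670 and 637 CPM among Y-linked cells, a ratio of 0.951. For Mpo those ratios were 0.826 and 1.04. Median depth was 37001 UMIs in the Smarcc1-negative and 47100.5 UMIs in the other CKO cells, and the part of depth in this split was not tested.

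**Figure D3:**
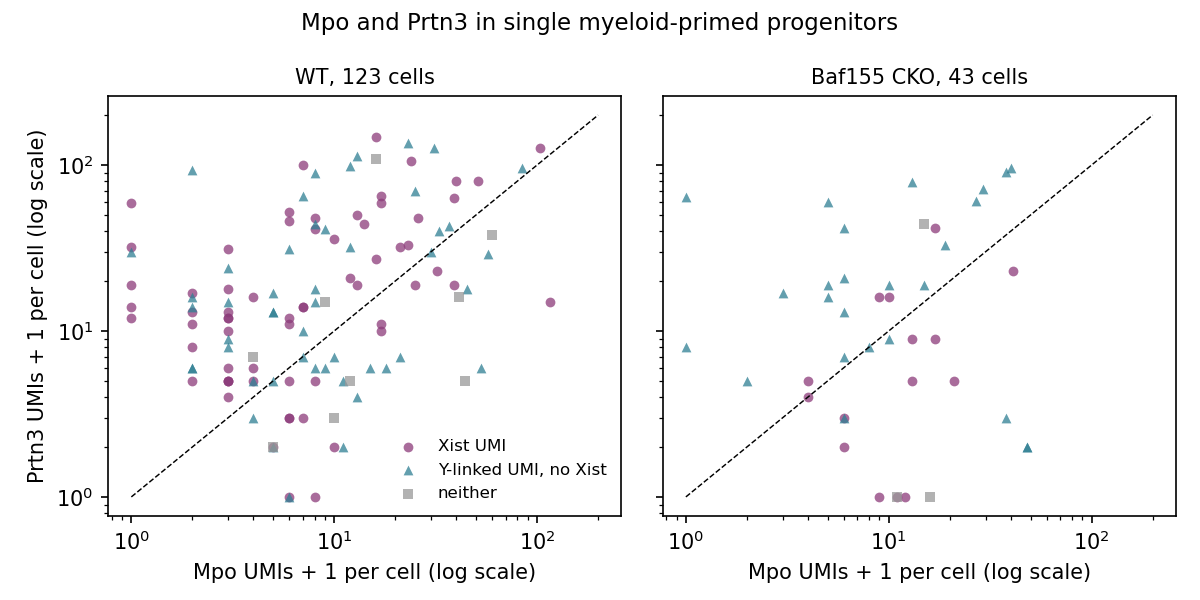
Prtn3 UMIs (vertical) against Mpo UMIs (horizontal) per myeloid-primed progenitor, on log axes with 1 added, WT on the left and CKO on the right. Marker shapes show Xist, Y-linked or neither, and the dashed line marks equal counts. CKO cells with Xist lie mostly below the line (Mpo ahead in 10 of 15) and Y-linked CKO cells mostly above it (Prtn3 ahead in 19 of 25).

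Other primary granule genes were at very different levels. Elane, the gene of neutrophil elastase, had 13 UMIs in 9 WT cells and none in the 43 CKO cells. The counting interval of the CKO over WT ratio runs from 0 to 0.855, and 53.8% of the WT UMIs came from 3 cells. Ctsg, the gene of cathepsin G, had no UMI in either library. Plac8 was at 176 CPM (WT) and 159 CPM (CKO) (ratio 0.899, 0.788 to 1.02). Calr, the chaperone that folds Mpo in the endoplasmic reticulum, was at 775 and 939 CPM (1.21, 1.15 to 1.28). Serpinb1a, an inhibitor of neutrophil serine proteases, had a UMI in 69.1% of WT and 25.6% of CKO cells and stood at 47.4 and 17.7 CPM (0.374, 0.254 to 0.534). Srgn, the proteoglycan that packs granule proteases, was higher in CKO at 347 CPM against 156 CPM (ratio 2.22).

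Of 15 primary granule genes, 10 had the 50 UMIs over both libraries that were set for a comparison. Of these, 2 were at least 2-fold higher in CKO, Srgn among them, and 1 at least 2-fold lower (Serpinb1a), and their median log2 ratio, with 0.5 CPM added, was 0.01. The background is the set of all 7357 genes with 50 UMIs in these cells: 3.74% were at least 2-fold higher, 2.79% at least 2-fold lower and 6.52% either, with a median log2 ratio of -0.01 and 48.6% of the genes above 0. List counts below are to be read against these shares.

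Among the transcription factors of the branch, Spi1 had 0 to 63 UMIs per WT cell (median 11) and 0 to 76 per CKO cell (median 16). The level was 320 CPM (WT) and 370 CPM (CKO) (1.16, 1.06 to 1.26). Runx1 was at 113 and 128 CPM (1.13, 0.973 to 1.32) and Myb at 48.2 and 48.6 CPM (1.01, 0.788 to 1.28). Cebpa, needed for the granulocyte branch, had a UMI in 43.9% of WT and 30.2% of CKO cells and stood at 25.5 and 12.7 CPM (0.497, 0.310 to 0.767). Irf8, a factor of monocyte and dendritic cell fate, had one in 46.3% and 23.3% and stood at 54.6 and 29.9 CPM (0.547, 0.406 to 0.726), with 72.9% of its CKO UMIs in 3 cells. Cebpb, linked to stress-driven granulopoiesis, was higher at 437 against 288 CPM (1.52, 1.39 to 1.65). The Cebpa ratio was 0.345 among cells with Xist and 0.817 among Y-linked cells, a difference that was not tested. Of 19 listed factors, 18 were in the files and 12 could be compared: Cebpa was past 2-fold lower, and Id2 was past 2-fold higher with 67.6% of its CKO UMIs in 3 cells, and the median log2 ratio was 0.19.

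Genes by which blood cells move and signal lay within 2-fold, with the exception of Plek. Coro1a, an actin regulator, had 1 to 80 UMIs per WT cell (median 26) and 1 to 149 per CKO cell (median 31). It stood at 652 CPM (WT) and 647 CPM (CKO) (0.992, 0.930 to 1.06), although it was 0.836 without the 3 CKO cells that held most Stfa1. Rac2 had 2 to 59 UMIs per WT cell (median 24) and 0 to 47 per CKO cell (median 21). It was at 531 and 428 CPM (0.806, 0.745 to 0.871), with 0.425 among cells with Xist, 1.07 among Y-linked cells and 0.490 without the Ecscr limit. Fcer1g, a signalling chain of Fc receptors, was at 493 and 701 CPM (1.42, 1.33 to 1.52). Plek, the protein kinase C substrate pleckstrin, was the 1 gene past 2-fold of the 23 in this list, all of which could be compared, at 113 CPM (WT) and 309 CPM (CKO) (2.74, 2.45 to 3.08). It had a UMI in 95.1% and 100% of cells, and in the other kept cells the ratio was 2.34. The median log2 ratio of the list was 0.19.

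Subunits of the NADPH oxidase, which makes superoxide, were detected in cells that held next to no RNA of secondary granules. Cyba was at 279 CPM (WT) and 268 CPM (CKO), a ratio of 0.962 (0.869 to 1.06). Ncf4 was past 2-fold higher (2.43, 1.72 to 3.42), with 51.5% of its CKO UMIs in 3 cells. The other 4 of the 5 subunits with enough UMIs were within 2-fold.

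Summed over cells, the receptors for growth factors named here were low in the progenitors of both libraries, though single cells held more. Csf3r, the G-CSF receptor, was at 28.6 CPM (WT) and 25.8 CPM (CKO) (0.904, 0.644 to 1.25), with a UMI in 61.8% and 62.8% of cells. Csf1r, the M-CSF receptor of macrophages, was at 15.2 and 26.3 CPM (1.74, 1.20 to 2.50), with 57.7% of its CKO UMIs in 3 cells. Kit, the stem cell factor receptor, was at 16.3 and 35.4 CPM (2.17, 1.56 to 3.02), with 3.28 among cells with Xist and 1.47 among Y-linked cells. Il3ra (2.15, 1.31 to 3.50) and Csf2rb (2.99, 2.17 to 4.13) were also past 2-fold higher. For Csf2rb, 79.1% of the CKO UMIs came from 3 cells, and reads of this gene and its near-identical copy Csf2rb2 may have been split in counting. Of 16 listed receptors 11 could be compared, with these 3 higher and none lower past 2-fold, and a median log2 ratio of 0.22.

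Of the genes of the uncommitted progenitor, Cd34 had 0 to 37 UMIs per WT cell (median 7) and 0 to 33 per CKO cell (median 11), and the ranges overlap. Cd34 was at 213 CPM (WT) and 226 CPM (CKO) (1.06, 0.947 to 1.18), Lmo2 at 341 and 311 CPM (0.913, 0.831 to 1.00) and Lyl1 at 159 and 145 CPM (0.912, 0.794 to 1.04). Adgrg1 was at 143 and 230 CPM, a ratio of 1.61. Of 23 listed genes 19 could be compared: Kit and Mycn (2.38, 1.83 to 3.09) were past 2-fold higher, and Sox4 was past 2-fold lower at 15.2 against 67.1 CPM (0.227, 0.151 to 0.329). Myc, listed with the ribosome genes, was at 61.8 CPM (WT) and 22.8 CPM (CKO) (0.369, 0.264 to 0.505), the 1 gene of 25 in that list past 2-fold, beside a list median of -0.13.

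The cells were next divided by how much Mpo and Prtn3 they held, at 3.81 and 11.2 UMIs per 10000, the points that cut the WT cells into 3 equal sets. This gave 41 WT cells in each set and 14, 22 and 7 CKO cells in the low, middle and high sets. The high CKO set held no cell with Xist, against 19 in WT. The order below is a description, since Mpo and Prtn3 chose both the cells and the sets.

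Of 18 myeloid factors, 13 were higher in the high than in the low set of WT cells and 5 were lower. The share of all genes that were higher in the high set was not computed, so this count has no background. Some of these factors had few UMIs, such as Cebpe with 0, 0 and 5 in the WT sets from low to high. Spi1 was 175, 355 and 465 CPM from the low to the high set, Cebpa 7.59, 29.2 and 43.9 CPM, Irf8 21.2, 31.1 and 119 CPM, and Cebpb 152, 327 and 417 CPM. Myb was 64.3, 39.4 and 37.0 CPM, and Id2 (10.6, 8.89 and 6.91 CPM), Klf4, Maf and Etv6 were the others that were lower in the high set. Serpinb1a was 21.8, 47.6 and 79.1 CPM, and Calr 616, 705 and 1042 CPM. In the opposite direction, Gata2, a factor of early progenitors and mast cells, was 92.1, 60.3 and 25.7 CPM. The erythroid factors Gata1 (49.6, 11.4 and 12.6 CPM) and Klf1 (37.4, 8.26 and 3.14 CPM) were highest in the low set, as were Car2 (383, 193 and 103 CPM) and the endothelial adhesion gene Esam (21.8, 11.4 and 1.26 CPM).

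In CKO 12 of the 18 factors were higher in the high than in the low set and 6 were lower. That count has no background share either, and the high CKO set was 7 cells. The CKO cells showed the WT order for Spi1 (262, 342 and 704 CPM), Irf8 (1.54, 23.3 and 115 CPM) and Gata2 (111, 46.6 and 16.8 CPM). Esam was 46.3, 19.4 and 3.37 CPM. Cebpa was 7.71, 11.7 and 26.9 CPM. The order differed for Cebpb (473, 376 and 566 CPM), Serpinb1a (18.5, 5.83 and 57.3 CPM) and Car2 (370, 135 and 158 CPM). Klf1 was at or under 1.54 CPM in all 3 CKO sets, against 37.4 CPM in the WT low set. Smarcc1 was 43.2, 56.4 and 80.8 CPM in CKO and 124, 134 and 120 CPM in WT.

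**Figure D4:**
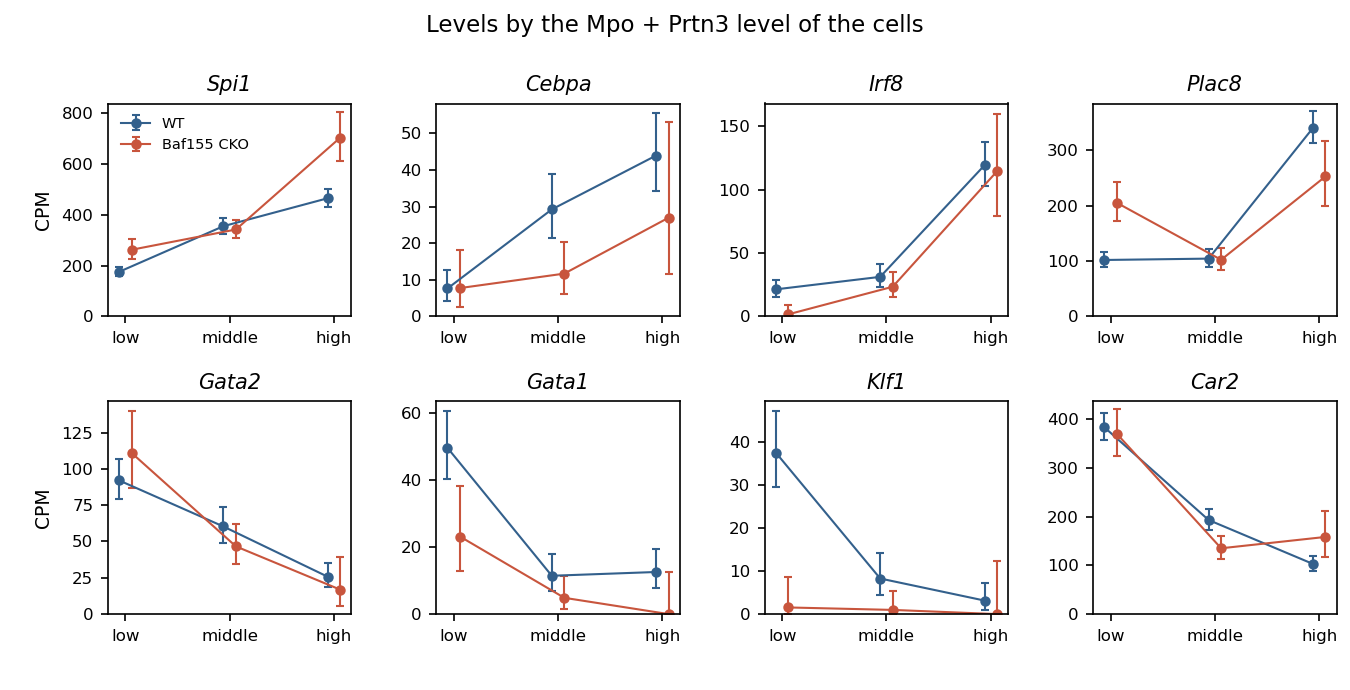
Level in CPM of 8 genes in the low, middle and high sets of Mpo and Prtn3 UMIs, for WT (41 cells in each set) and CKO (14, 22 and 7 cells). Points are sums over the cells of a set and bars are 95% Poisson intervals. Spi1, Cebpa and Irf8 were higher toward the high set in both libraries and Gata2 lower, while Klf1 stood out in the WT low set at 37.4 CPM.

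Klf1, the master factor of red cells, had 92 UMIs in 19 WT cells and 2 UMIs in 2 CKO cells (0.0566, 0.00676 to 0.210), and Gata1 had 26.4 and 10.1 CPM (0.383, 0.227 to 0.615). The share of cells with a Gata1 UMI was 25.2% (WT) and 25.6% (CKO), or 17.1% and 9.52% after thinning. For Klf1 it was 15.4% and 4.65%, or 8.55% and 0% after thinning (0 to 8.41 in CKO). In collagen-rich cells, which were shallower, the Klf1 shares were 0.417% in WT and 5.69% in CKO, or 0% and 2.69% after thinning, and the part of RNA from outside the cells was not tested. Tfrc, the transferrin receptor, was past 2-fold higher in CKO (2.61, 1.77 to 3.83). The 18 erythroid genes, of which 8 could be compared, had Klf1 and Gata1 past 2-fold lower, Tfrc past 2-fold higher and a median log2 ratio of 0.23. Mast cell and basophil genes were thin: Cpa3 had 47 UMIs in 21 WT cells and 9 UMIs in 3 CKO cells, and Hdc, which makes histamine, had 83 and 17 UMIs.

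Globin RNA was higher in CKO progenitors, and also in the other classes of CKO cells that were not globin-rich. All 6 globin genes that could be compared were past 2-fold higher, with a median log2 ratio of 2.41. WT progenitors held 185 CPM of Hbb-y and CKO progenitors 1198 CPM (6.48, 6.01 to 6.99). In the Ecscr-positive, C1q-positive, Klf1-positive, Mpo-low and collagen-rich cells it ran from 164 to 220 CPM in WT and from 1107 to 1211 CPM in CKO. The limit of the rule on globins was on Hbb-y, Hbb-bh1 and Hba-x, and reads of the near-identical Hba-a1 and Hba-a2 may have been split. Of the collagen genes, Col1a1 had a UMI in 14.6% of WT and 65.1% of CKO progenitors, at 3.89 and 20.8 CPM. How much of such RNA came from outside the cells was not tested.

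Of 15 listed megakaryocyte genes 8 could be compared, of which Pf4, Rab27b, Clec1b and Itgb3 were past 2-fold higher in CKO progenitors. All 8 lay above 0 on the log2 scale, where 48.6% of all genes did, with a median of 0.88. Itgb3, the integrin chain of platelets, had a UMI in 80.5% of WT and 100% of CKO cells, at 73.9 and 159 CPM (2.15, 1.85 to 2.51). Clec1b was at 46.5 and 102 CPM (2.19, 1.81 to 2.65). Pf4, platelet factor 4, was at 21.6 and 61.8 CPM, with 61.5% of its CKO UMIs in 3 cells. The summed list was 1096 CPM in the 13 CKO cells with no Smarcc1 UMI, 318 CPM in the 30 with one and 278 CPM in WT. The list median was 0.11 among Y-linked cells and 1.28 among cells with Xist. Pf4 was also at 290 CPM in CKO and 0.361 CPM in WT collagen-rich cells, and its part in the progenitor value was not tested.

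Endothelial genes stayed low in the progenitors but not at 0. Pecam1 was at 22.7 CPM (WT) and 21.8 CPM (CKO), and Kdr (2.10, 1.44 to 3.05), Tie1 (2.06) and Esam (2.11, 1.43 to 3.10) were past 2-fold higher in CKO, while Icam2 was past 2-fold lower (0.344, 0.182 to 0.603). The median log2 ratio of the 10 genes of this list that could be compared was -0.01, and 1.10 without the Ecscr limit. Cdh5, the gene of VE-cadherin, had a UMI in 19 WT and 4 CKO cells.

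Genes with at least 100 UMIs that 10% or more of the progenitors held in the library with the higher level were ranked by CKO over WT ratio. Globin, ribosomal, mitochondrial and predicted genes, Xist, Y-linked genes and the genes of the rule were left out. The 12 with the highest ratios were of 2 kinds. The first kind was seen in many cells. Trib3, a stress pseudokinase, had 10 UMIs in 6.50% of WT cells and 106 UMIs in 60.5% of CKO cells, at 1.94 and 53.7 CPM (27.6, 14.4 to 59.2). Hbp1, a repressor of cell cycle genes, had a UMI in 35.8% and 86.0% of cells, at 11.5 and 53.2 CPM (4.64, 3.34 to 6.49). The long noncoding RNA Neat1 had one in 23.6% and 60.5%, at 8.16 and 53.7 CPM (6.57, 4.56 to 9.64). Lmo1 was at 5.05 and 47.1 CPM (9.32) and the BMP target Id3 at 15.9 and 97.2 CPM (6.10), in 51.2% and 44.2% of CKO cells, and Tnni2 at 24.1 and 110 CPM (4.56), in 48.8%. The 3 highest CKO cells held 57.0% of the UMIs of Lmo1, 49.0% of Id3, 48.1% of Neat1 and 54.4% of Tnni2.

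The second kind had at least 74.0% of its CKO UMIs in 3 cells. Stfa1, a cysteine protease inhibitor of myeloid cells, had 1159 UMIs in CKO and 162 in WT (18.6, 15.8 to 22.1), but 991 of the 1159 came from a single cell and 96.8% from 3 cells, and Stfa1 belongs to a family of near-identical genes whose reads can be split in counting. The same single cell held 77 of the 94 CKO UMIs of the chemokine gene Ccl9 and 22 of the 71 of Id2. Without the 3 CKO cells highest in Stfa1, a check chosen after seeing the data, the ratio was 0.664 for Stfa1 and 0.838 for Ccl9. Ccl6 (15.2) and Ccl4 (4.88) had 93.3% and 96.0% of their CKO UMIs in 3 cells, Cd24a (5.50) 84.4% and Fgl2 (5.01) 74.0%.

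The 12 genes with the lowest ratios in that ranking included heat shock and immediate early genes. Hspa1a, an inducible Hsp70 gene, was at 1703 CPM (WT) and 180 CPM (CKO) (0.106, 0.0949 to 0.118), with a UMI in 96.7% and 62.8% of cells. Its reads may be shared with the near-identical Hspa1b. Jun was at 651 and 171 CPM (0.262, 0.234 to 0.293), Hspb1 at 154 and 26.8 CPM (0.175, 0.130 to 0.231), and Cxcl2 at 22.2 and 4.05 CPM. In the other kept cells the ratios were 0.503 for Hspa1a, 0.765 for Jun and 0.672 for Hspb1. Without the Ecscr limit the progenitor ratios were 0.547 for Jun and 0.501 for Hspb1, and for Cxcl2 it was 0.597 with only the CKO cells that had no Smarcc1 UMI. Fos, from the immediate early list, was lower too (0.349, 0.235 to 0.504), while Ier2, Junb and Jund were within 2-fold, and the 13 genes of that list that could be compared had a median of -0.29 with 2 past 2-fold lower and Atf3 past 2-fold higher. The dissociation protocol given is the same for both libraries, which does not show how each was handled. Differences in handling cannot be told apart from genotype here and were not tested.

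Hnrnpa0, Mbd2, Hes1, Tspan15, Cd69 and Tc2n of that set were also past 2-fold lower in the rest of the CKO library. Hnrnpa0, an RNA-binding protein, had a UMI in every progenitor of both libraries and was at 503 CPM (WT) and 134 CPM (CKO) (0.267, 0.234 to 0.303), with 0.248 in the other kept cells. Mbd2, a reader of methylated DNA, was at 44.5 and 10.6 CPM (0.239, 0.145 to 0.374), with 0.276 elsewhere. The Notch target Hes1 was at 41.0 and 7.09 CPM (0.173, 0.0929 to 0.297), with 0.335 elsewhere. Sox4, Tspan15 (0.161), Cd69 (0.202), Tc2n (0.230) and the linker histone Hist1h1b (0.276) complete the 12. In the other kept cells the ratios of these 5 were 0.785, 0.426, 0.226, 0.469 and 0.550, and Sox4 was at 0.630 in progenitors without the Ecscr limit. Ptprcap, a partner of the CD45 phosphatase, was named by its enrichment in progenitors and was at 107 and 34.4 CPM (0.322, 0.247 to 0.415), with 0.141 in the other kept cells.

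**Figure D5:**
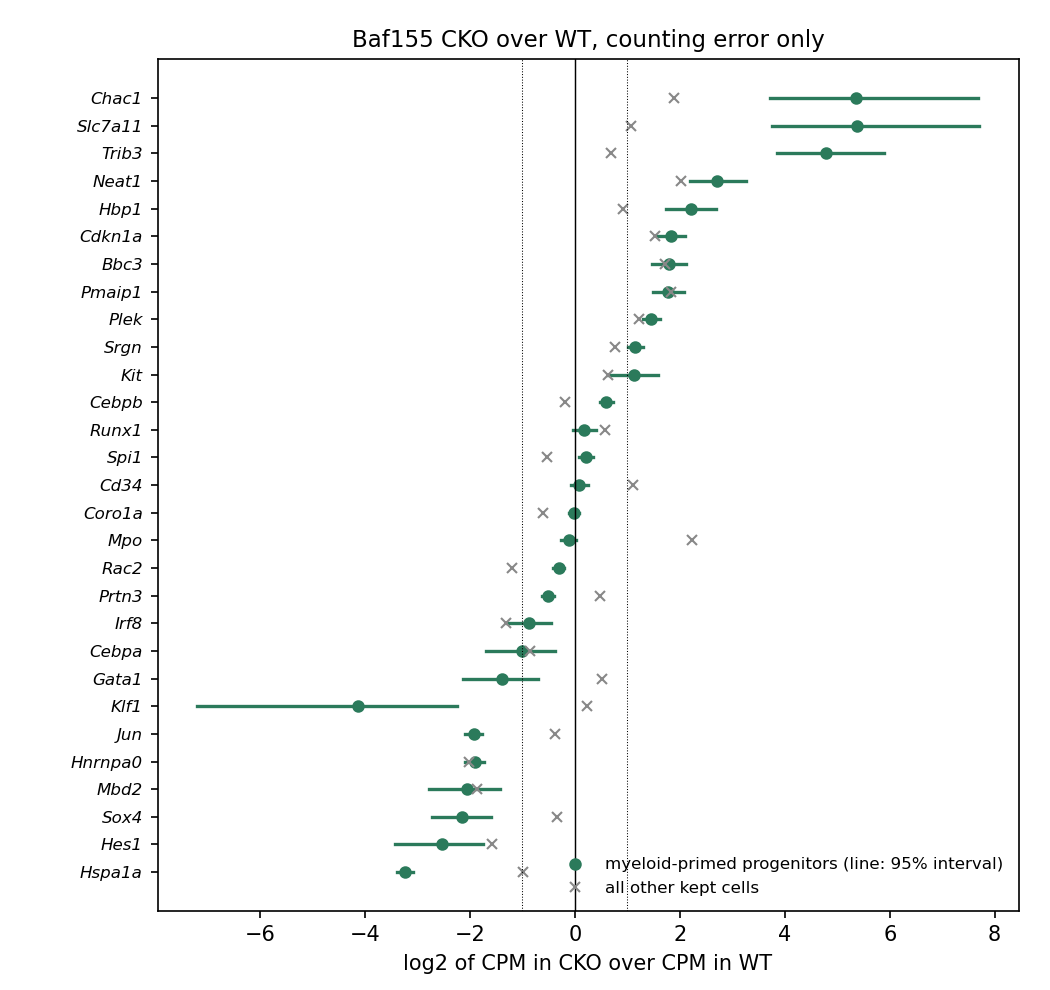
Log2 of CKO over WT level in myeloid-primed progenitors for named genes (points with 95% intervals from counting error) and in all other kept cells (crosses). Dotted lines mark 2-fold. Hnrnpa0 and Mbd2 have points and crosses together on the left, and Trib3, Slc7a11 and Chac1 lie farthest to the right. Mpo has a cross at a ratio of 4.67 but a point at a ratio of 0.920. The other kept cells include the Ecscr-positive cells that the rule took out, which held 96 Mpo UMIs in WT and 1086 in CKO. The Mpo cross therefore depends on the rule.

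The transcription factor p53 can halt or kill damaged cells. Of 23 listed p53 targets 15 could be compared, 5 were past 2-fold higher in CKO progenitors and none past 2-fold lower. The median log2 ratio was 0.39, and 13 lay above 0 where 48.6% of all genes did. Cdkn1a, the p21 inhibitor of cell cycle kinases, had 0 to 25 UMIs per WT cell (median 0) and 0 to 52 per CKO cell (median 4), at 39.9 and 142 CPM (3.57, 2.97 to 4.30). The shares of cells with a UMI were 43.1% (WT) and 79.1% (CKO), or 20.5% and 47.6% after thinning. In collagen-rich cells the unthinned shares were 15.8% and 22.1%. The death genes Bbc3 (26.8 and 93.2 CPM, 3.47, 2.77 to 4.36) and Pmaip1 (33.2 and 114 CPM, 3.43, 2.80 to 4.21) and Sesn2 (11.1 and 40.0 CPM, 3.61, 2.54 to 5.17) and Ddit4 (2.18) made up the 5. Bax (0.850) and Aen (1.28) were within 2-fold.

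The p53 list had a median above 0 by both sex genes and in the CKO cells without Smarcc1 UMIs. Cdkn1a had ratios of 3.38 among cells with Xist and 5.41 among Y-linked cells, and in CKO it was 115 CPM in cells with no Smarcc1 UMI and 151 CPM in those with one. The list median was between 0.32 and 0.69 under the alternatives run. In the other kept cells the ratios were 2.87 for Cdkn1a, 3.29 for Bbc3 and 3.58 for Pmaip1, and C1q-positive cells had 20.6 CPM of Cdkn1a in WT and 124 CPM in CKO.

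Atf4 drives the integrated stress response when translation or amino acids fail. Of 20 listed genes of that response 19 could be compared, 6 were past 2-fold higher in CKO and none past 2-fold lower, with a median log2 ratio of 0.59. Atf4 itself was at 210 CPM (WT) and 333 CPM (CKO) (1.59, 1.44 to 1.75). Ddit3, the gene of CHOP, was at 6.42 and 24.8 CPM (3.87, 2.44 to 6.21). Chac1, which breaks down glutathione, had 3 UMIs in WT and 47 in CKO (40.8, 13.1 to 205), and the cystine carrier Slc7a11 had 3 and 48 (41.7, 13.4 to 209). Trib3, Sesn2 and Atf3 (2.16, 1.63 to 2.85) were the others. Phgdh and Psat1, which make serine, were not higher (0.710 and 0.976).

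The summed level of this list was higher in CKO cells with a Smarcc1 UMI. It was 2711 CPM in the 30 CKO cells with a Smarcc1 UMI, 1555 CPM in the 13 without, and 1978 CPM in WT. Trib3 was 64.4 CPM in the former and 17.6 CPM in the latter, against 1.94 CPM in WT. With only the 13 CKO cells without Smarcc1 UMIs set against WT, the list median was -0.40. It was 0.08 among cells with Xist and 0.59 among Y-linked cells. The removed Ecscr-positive CKO cells had 1272 CPM. In collagen-rich cells the list was 909 CPM (WT) and 1155 CPM (CKO), and Trib3 was 0.722 and 4.58 CPM there.

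Cell cycle genes had medians below that of all genes. The 40 S phase genes had a median log2 ratio of -0.14 and the 51 G2 and M phase genes -0.19, with none past 2-fold in either list. Hmgb2 was at 1439 CPM (WT) and 1079 CPM (CKO) (0.750, 0.714 to 0.787), Ube2c at 460 and 365 CPM (0.792, 0.728 to 0.861) and Rrm2, a subunit of ribonucleotide reductase, at 248 and 126 CPM (0.508, 0.441 to 0.582). Cks2 was higher (1.18, 1.11 to 1.25). Interferon genes had a median of -0.04 over 7 genes, none past 2-fold.

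The other BAF genes that could be compared lay within 2-fold. Of 25 listed genes 20 could be compared, Smarcc1 was the 1 gene past 2-fold lower and none was past 2-fold higher, with a median log2 ratio of 0.03. The ATPase gene Smarca4 was at 101 CPM (WT) and 123 CPM (CKO) (1.21, 1.04 to 1.41), Smarcb1 at 131 and 110 CPM (0.845, 0.722 to 0.986), Smarce1 at 163 and 167 CPM (1.02, 0.897 to 1.16) and Actl6a at 136 and 152 CPM (1.12, 0.974 to 1.28). HOX genes were too low to compare. Hoxa9 had 26 UMIs in 6 WT cells and 1 UMI in CKO, and Hoxa7 had 14 UMIs in WT and none in CKO.

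By enrichment over all other kept cells of the same library, the 15 leading genes of the progenitors in both libraries were Prtn3, Mpo, Spi1, Coro1a, Rac2, Stfa1, Ptprcap, Bin2, Pstpip1, Tuba8, Coro2a, Cox4i2, Hp, Perp and Srgn. The genes of the rule are among them by choice of the cells. The other cells include red and collagen-rich cells, and C1q-positive cells had more Coro1a (1038 CPM in WT, 937 CPM in CKO) than the progenitors. Spi1 was higher in C1q-positive cells than in progenitors in WT (459 against 320 CPM) and about equal in CKO (377 against 370 CPM). Haptoglobin (Hp) was at 58.1 CPM (WT) and 133 CPM (CKO) progenitors, against 1.83 and 1.79 CPM in the other cells, and 66.2% of its CKO UMIs were in 3 cells. Pstpip1, an adaptor of the actin skeleton, was at 29.5 and 25.3 CPM against 4.03 and 1.75 CPM. Coro2a (46.8 and 42.5 CPM), Tuba8 (39.7 and 35.4 CPM) and Bin2 (142 and 105 CPM) had ratios between 0.737 and 0.908.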

How the data were processed

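The deposited matrices hold counts of UMIs per gene and barcode for 33456 genes and were made by the authors with Cell Ranger on GRCm38, with Seurat also named, per the submitters' processing notes; no source used here says how barcodes were called. The libraries held 24538853 (WT) and 27314411 (CKO) UMIs, with 6054 to 114332 per barcode, and progenitors 5144121 and 1974678. Cells were chosen by the rule in the first paragraph and counts summed per library and divided by total UMIs (CPM). CPM have exact Poisson, shares exact binomial (Clopper-Pearson) and ratios conditional binomial intervals at 95%, and UMIs of 1 cell are not independent, so intervals are too narrow. Genes needed 50 UMIs, and calls were at 2-fold. List medians use 0.5 CPM added. The 29 gene lists, the progenitors' rule and the alternatives were chosen with earlier results of these data known. Of 520 list genes, 5 were matched by Ensembl ID, and Cebpd was not matched.

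Genes named are the marker genes, the 12 highest and 12 lowest ratios with at least 100 UMIs, seen in at least 10% of cells (without ribosomal, mitochondrial, predicted, globin, sex-linked and rule genes), the 15 most enriched over other cells with 5 CPM added and at least 20 UMIs, and list genes past 2-fold or with most UMIs. Of those, examples are given. Y-linked cells are those with a Y-linked UMI and no Xist UMI, and 1 WT and 1 CKO progenitor with both count as Xist cells. Scrublet in scanpy 1.11.5 with an expected rate of 1% marked 3 WT and 6 CKO barcodes and no progenitor as doublets. On simulated data with the summed depths of these cells, 0.354% of 7061 unchanged genes passed 2-fold, and 100% of genes raised and 97.8% of genes lowered 4-fold were called. The simulated counts had Poisson error only, without variation between cells, embryos or libraries. These shares are therefore not error rates for the real calls. Tables were made with pandas 2.3.3 and numpy 2.4.6 on Python 3.11.15, intervals with scipy 1.17.1, figures with matplotlib 3.10.9, with seed 0. Results for some list genes are not reported here.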

Additional observations from a re-analysis of the deposited data

Results flagged for a closer look

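Ccl4, a chemokine gene, was past 2-fold higher in CKO progenitors over all cells but went in opposite directions in the sets by sex genes. The CKO over WT ratio was 0.475 among cells with an Xist UMI and 4.82 among Y-linked cells. The difference was not tested, and a single CKO cell held 117 of the 148 CKO UMIs.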

How the results depend on the processing

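With 1 library per genotype, no library could be left out. No paired analysis was possible because each group holds 1 sample. CKO minus WT in the share of progenitors was -10.6 percentage points and stayed below 0 throughout: -7.11 with cells thinned to 10000 UMIs, -3.59 without the Ecscr limit, -14.6 among cells with Xist, -7.39 among Y-linked cells, and -17.1 with globin-rich and collagen-rich cells left out of the total. The Smarcc1 ratio was 0.252 without the Ecscr limit, 0.119 with Xist and 0.627 among Y-linked cells. Against 275 genes higher, there were 177 after thinning, 525 without the Ecscr limit, 141 among Y-linked cells and 479 in CKO cells without Smarcc1 UMIs, and 517 and 79 with minimums of 20 and 200 UMIs. Against 205 lower, there were 634 in CKO cells without Smarcc1 UMIs, and 430 and 64 with those minimums. Lists of at least 5 genes with a median past 0.5 on the log2 scale numbered 3, but 5 with a minimum of 3 Mpo and Prtn3 UMIs, after thinning or by the mean of the cells' own CPM, 6 without the Ecscr limit, with Xist or among Y-linked cells, and 7 in CKO cells without Smarcc1 UMIs. Among genes past 2-fold and list medians whose range over the list's middle genes left out 0, signs turned for Ccl9 (0.720 with a minimum of 10 UMIs, 0.838 without the 3 cells highest in Stfa1), Stfa1 (0.664 without them), Ccl4 (0.475 with Xist), the progenitor regulator list (-0.0086 among Y-linked cells) and the stress response list (-0.40 in CKO cells without Smarcc1 UMIs). The cause was not tested. Of 388 values of named genes under alternatives, 280 lay inside the counting interval of the main value. Besides the 4 turned signs, 104 lay outside it. The counting error of the alternative itself was not used, so small sets of cells can lie outside by that error alone. Cd34 among Y-linked cells (0.864, 0.734 to 1.01) was counted as outside, though its interval overlaps the main one (1.06, 0.947 to 1.18). Values nearer to no difference also crossed it: 17 in 8 genes and 53 in 14 lists lay on the other side, these included (Mpo 1.56 and the immediate early list 0.31 in CKO cells without Smarcc1 UMIs).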
